A study of Mus musculus with 11 samples.

Results

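Collagens are the trimeric proteins that give the extracellular matrix its fibres and sheets, and each chain of a trimer has its own gene. The members described here are the 42 protein-coding genes of mouse chromosomes 1 to 19 whose symbol is Col, a type number, the letter a and a chain number, out of 20807 protein-coding genes on those chromosomes. They fall into 11 fibrillar collagens, 6 basement membrane collagens and 25 other collagens, and the chain genes on the X chromosome lie outside this rule. Their promoters and gene bodies were examined for peaks of H3K27me3, trimethylation of lysine 27 of histone H3.

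The study dissected 4 regions of the forebrain, namely the medial ganglionic eminence (MGE), its caudal (CGE) and lateral (LGE) counterparts, ventral zones that give rise to GABAergic neurons, and the cortex (CTX), from wild-type embryos of the C57BL/6J strain. H3K27me3 was measured by CUT&Tag, in which an antibody directs a transposase to the marked nucleosomes so that nearby DNA receives sequencing adapters. Of the 11 samples 2 were of MGE, and CGE, LGE and CTX had 3 each. By their titles 2 of those 3 share a replicate number, and the study counts the replicates of a region as a pair, so these may be repeats of 1 replicate. Peaks were called by the authors after pooling the reads of each region, which leaves 1 list of broad peaks per region and no replicate error. By the study's account the CUT&Tag embryos were at E12.5. The protocol in the labels names E14.5 as well, and it also speaks of nuclei of the 4 regions being mixed, whereas each label names 1 region. With 1 list per region no difference between regions could be tested, and 1 list against 3 would allow a permutation p of 0.25 at the lowest. The values below therefore describe 4 lists.

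H3K27me3 is placed by Polycomb repressive complex 2, and its peaks are known to gather at CpG-rich promoters of developmental genes that a tissue keeps silent. Fibrillar collagens assemble into the striated fibrils of bone, cartilage, skin and tendon, and are made chiefly by mesenchymal cells. Basement membrane collagens form the sheets under epithelia and around blood vessels. The remaining collagens attach to fibrils, form beaded filaments or hexagonal networks, or span the plasma membrane. In the embryonic forebrain collagen is known chiefly from the meninges and the vessels, while neural progenitors touch a basement membrane at the pial surface. Because whole tissue was used, a smaller share of cells with the mark and a weaker mark per cell cannot be told apart.

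The promoters of 6 members show the range of sequence at collagen 5′ ends. They are the 250 bases upstream of the RefSeq start in assembly GRCm38.p6, written 5′ to 3′ on the gene's strand with every CpG in capitals. Within 2 kb of the 5′ end, Col4a1 and Col13a1 carried peaks in every list, Col11a1 in CTX alone, and Col3a1 and Col10a1 in none. Col6a2 carried them in the 3 ganglionic eminence lists. Its peaks in MGE and LGE began 0.227 and 0.254 kb inside the gene, so only the CGE peak reached the printed bases.
Col4a1 (chr8:11312827-11313076, minus strand): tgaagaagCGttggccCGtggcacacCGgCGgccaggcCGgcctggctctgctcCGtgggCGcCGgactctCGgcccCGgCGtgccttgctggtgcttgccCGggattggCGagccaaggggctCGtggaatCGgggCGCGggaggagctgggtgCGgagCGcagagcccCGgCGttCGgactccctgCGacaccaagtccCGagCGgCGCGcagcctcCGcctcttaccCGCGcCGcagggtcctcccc
Col13a1 (chr10:61979109-61979358, minus strand): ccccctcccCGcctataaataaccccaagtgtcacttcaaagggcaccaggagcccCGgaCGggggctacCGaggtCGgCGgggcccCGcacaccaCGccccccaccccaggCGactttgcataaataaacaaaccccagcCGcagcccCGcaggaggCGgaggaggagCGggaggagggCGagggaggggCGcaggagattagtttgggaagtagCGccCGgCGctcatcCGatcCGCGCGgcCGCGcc
Col11a1 (chr3:114030290-114030539, plus strand): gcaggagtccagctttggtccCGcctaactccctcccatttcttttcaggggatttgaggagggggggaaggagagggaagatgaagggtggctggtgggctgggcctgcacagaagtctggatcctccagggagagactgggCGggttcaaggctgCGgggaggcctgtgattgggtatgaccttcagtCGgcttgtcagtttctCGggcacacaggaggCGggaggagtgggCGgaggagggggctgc
Col6a2 (chr10:76623631-76623880, minus strand): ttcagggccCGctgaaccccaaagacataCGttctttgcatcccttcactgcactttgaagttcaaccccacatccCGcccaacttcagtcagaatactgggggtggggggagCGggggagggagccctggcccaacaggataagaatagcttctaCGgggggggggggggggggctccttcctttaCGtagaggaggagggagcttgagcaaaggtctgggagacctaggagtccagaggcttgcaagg
Col3a1 (chr1:45311288-45311537, plus strand): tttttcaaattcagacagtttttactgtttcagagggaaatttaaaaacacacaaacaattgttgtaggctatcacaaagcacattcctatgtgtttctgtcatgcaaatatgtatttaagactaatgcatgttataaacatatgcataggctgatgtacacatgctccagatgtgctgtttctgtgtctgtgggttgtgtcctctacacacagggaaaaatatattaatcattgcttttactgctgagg
Col10a1 (chr10:34389731-34389980, plus strand): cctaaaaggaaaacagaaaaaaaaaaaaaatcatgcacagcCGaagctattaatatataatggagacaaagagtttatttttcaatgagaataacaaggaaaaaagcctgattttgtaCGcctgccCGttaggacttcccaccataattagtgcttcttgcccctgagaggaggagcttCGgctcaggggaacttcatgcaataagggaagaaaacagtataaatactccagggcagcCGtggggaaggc

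These stretches held 31 CpG in Col4a1, 24 in Col13a1, 7 in Col11a1, 6 in Col6a2, 5 in Col10a1 and none in Col3a1. Their GC content was 74.4% in Col4a1, 68.8% in Col13a1, 62.4% in Col11a1, 59.2% in Col6a2, 41.6% in Col10a1 and 35.2% in Col3a1. The RefSeq table held a promoter for 33 of the 42 members, without Col1a1 and Col2a1.

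Coverage was measured in a window of 4001 bases, 2 kb either side of the GENCODE 5′ end of each gene, and a gene with at least 50% of its window under peaks is called marked. Marked collagens numbered 15 in MGE, 22 in CGE and 15 in LGE, and 17 in CTX, or 35.7%, 52.4%, 35.7% and 40.5% of the members. Among all protein-coding genes 10.0% were marked in MGE, 12.6% in CGE and 10.5% in LGE, and 11.2% in CTX. In all 4 lists 13 members were marked, 31.0% against 7.77% of all genes, and 22 in at least 1 list against 14.9% of all genes. Every collagen marked anywhere was marked in CGE. At the other end, the windows of 11 members were free of peaks throughout, 26.2% against 59.9% of all genes. The remaining 31 had some coverage in at least 1 list, 27 of them in all 4. The mean window coverage of the collagens was 35.5% in MGE, 43.9% in CGE and 36.9% in LGE, and 39.0% in CTX, where all genes averaged 11.8%, 13.7%, 12.3% and 13.1%. The heat map of window coverage shows each member in each list.

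**Figure D1:**
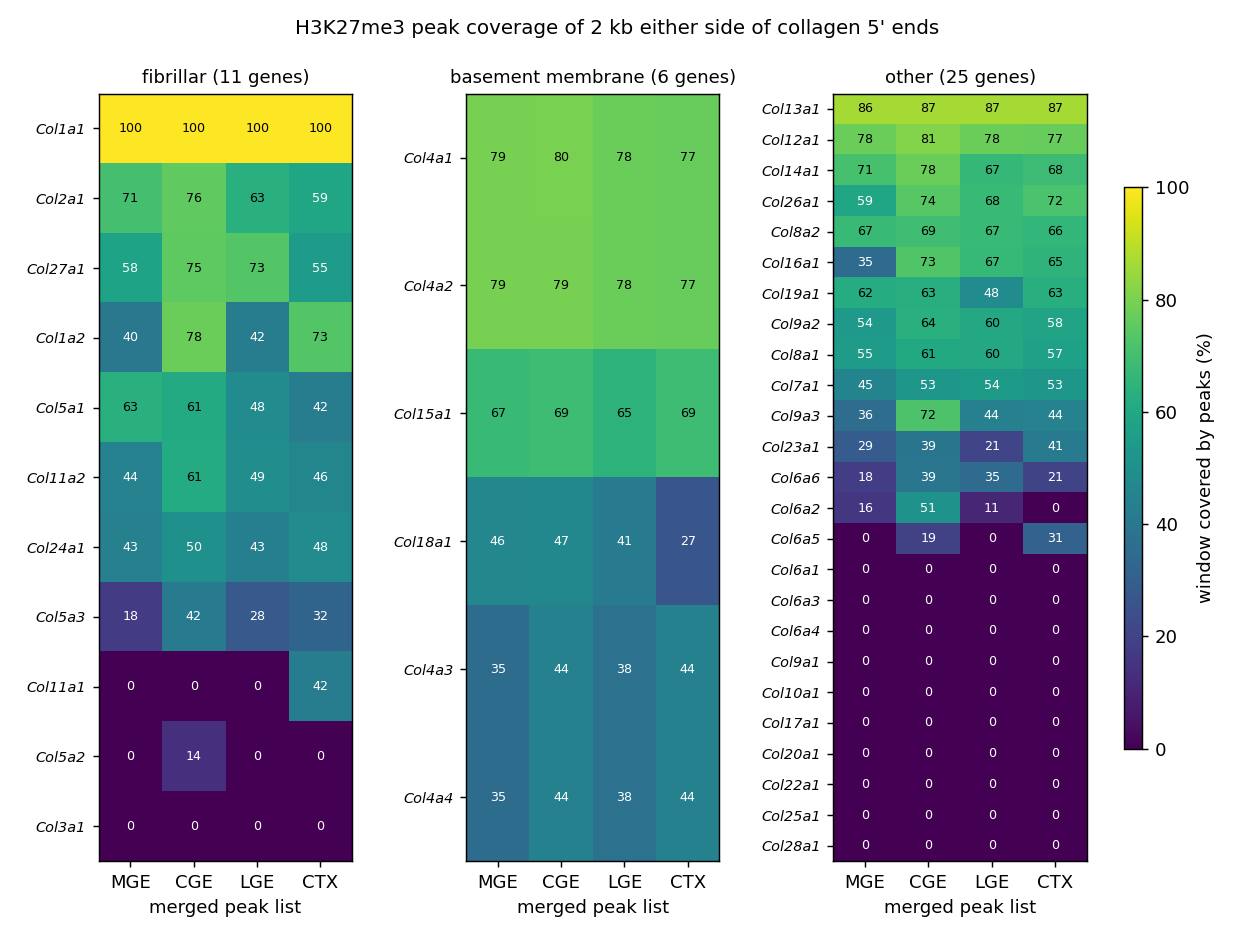
Percentage of the 4001-base window around the 5′ end that lay under H3K27me3 peaks, for the 42 collagen genes (rows, in 3 classes) and the merged list of each region (columns). Col1a1 is at 100% throughout, and 11 genes, 1 fibrillar and 10 of the other collagens, are at 0 throughout.

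The 3 classes differed in how many members carried the mark. Basement membrane collagens had the highest mean window coverage, 57.5% over the 4 lists, followed by fibrillar collagens with 44.1% and other collagens with 32.0%, and the class medians were 53.8%, 50.3% and 28.3%. All 6 basement membrane genes had a peak in their window in every list, while 1 of 11 fibrillar and 10 of 25 other collagens had none in any list. By list, fibrillar collagens averaged 39.7% in MGE, 50.6% in CGE and 40.7% in LGE, and 45.3% in CTX. Basement membrane collagens averaged 57.1%, 60.4%, 56.1% and 56.3%, and other collagens 28.5%, 36.9%, 30.7% and 32.1% in the same order. The order of the 3 class means was the same in each list, but single genes of a class ranged from 0 to 100% in the fibrillar class and from 0 to 86.6% in the other class. Marked in all lists were 3 fibrillar, 3 basement membrane and 7 other collagens. The basement membrane class has few independent windows, since 4 of its 6 genes lie in 2 head-to-head pairs that share a promoter, and no test was made between classes.

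**Figure D2:**
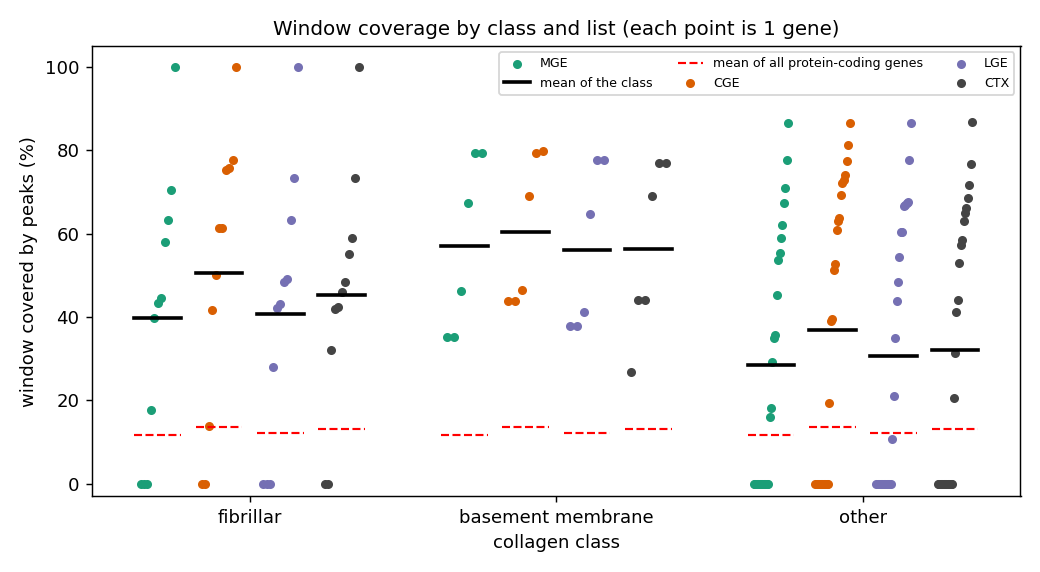
Window coverage of each gene (points) by class (x axis) and list (colours), with the mean of the class (black bar) and the mean of all protein-coding genes in that list (red dashes). The basement membrane points all lie above 20%, whereas the fibrillar and other classes hold genes at 0, and each class mean lies above the mean of all genes.

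The fibrillar class opens with the chains of type I collagen, the main protein of bone, skin and tendon. Col1a1, at chr11:94936224-94953042 on the plus strand, was covered over its whole window in MGE, CGE, LGE and CTX, by 1 peak per list of 4.71, 5.70, 5.59 and 5.55 kb. Col1a2, which encodes the partner chain (chr6:4504814-4541544, plus strand), had 39.9% in MGE, 77.5% in CGE and 42.2% in LGE, and 73.4% in CTX. MGE and LGE were low and CGE and CTX high, and the gap lay on the upstream side, where 17.4%, 85.2%, 18.7% and 77.0% of the 2 kb were covered. Inside the gene the peak ended 1.25 to 1.40 kb from the 5′ end in every list. The chains of 1 protein thus differed in window coverage in each list, with Col1a1 the higher.

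Col2a1, the collagen of cartilage (chr15:97975602-98004695, minus strand), had 70.5% of its window covered in MGE, 75.6% in CGE and 63.4% in LGE, and 58.9% in CTX. In MGE and CGE a single peak of 4.69 and 4.88 kb ran into the gene, while LGE and CTX had a peak of 2.54 and 2.36 kb over the 5′ end and a separate small peak 2.65 to 3.38 kb into the gene. Its gene body was covered over 13.3%, 15.1%, 7.59% and 6.24%. Col3a1, the type III chain that accompanies type I in vessels and skin, was at 0 in window and gene body in all lists. Its neighbour Col5a2, a type V chain whose gene lies 24.6 kb away on the opposite strand, had 13.8% in CGE and 0 elsewhere.

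The other type V chains regulate the width of type I fibrils. Col5a1 had 63.4% in MGE, 61.2% in CGE and 48.4% in LGE, and 42.4% in CTX, with the lowest value in CTX, 20.97 points under MGE. Its peak lay over the 5′ end in MGE and CGE and began 0.064 kb inside the gene in LGE and 0.305 kb inside it in CTX. Col5a3 had 17.6% in MGE, 41.6% in CGE and 28.02% in LGE, and 32.2% in CTX.

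Type XI collagen copolymerises with type II in cartilage. Col11a1 (chr3:114030540-114220718, plus strand) was at 0 in MGE, CGE and LGE and at 42.0% in CTX. The CTX peak, at chr3:114030393-114032071, had a fold enrichment of 3.13 and a −log10 q of 3.26, above 44.2% of the peaks in that list, and a second CTX peak of 0.618 kb lay 6.36 kb into the gene. Col11a1 was the only collagen at least 20 points higher in CTX than in every ganglionic eminence, where 1.50% of all genes were, and no collagen was that much lower in CTX than in every eminence, where 0.995% of all genes were. Col11a2 had 44.5%, 61.4%, 49.1% and 46.1% in MGE, CGE, LGE and CTX, and passed 50% in CGE alone.

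The fibrillar collagens of more recent description are Col24a1 and Col27a1. Col24a1 had 43.4%, 50.1%, 43.0% and 48.4% and thus sat near the limit for marking in every list. Col27a1 had 57.9% in MGE, 75.3% in CGE and 73.2% in LGE, and 55.1% in CTX. Its upstream side was alike, 46.0 to 50.7% covered, and the peak ran 2.72 kb into the gene in CGE and 2.63 kb in LGE against 1.32 kb in MGE and 1.28 kb in CTX.

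Type IV collagen is the network-forming component of basement membranes, and its genes sit in head-to-head pairs. Col4a1 and Col4a2 encode the chains found in most basement membranes, those of brain vessels included, and their 5′ ends on chromosome 8 are 21 bases apart. Col4a1 had 79.4% in MGE, 79.9% in CGE and 77.5% in LGE, and 76.9% in CTX, and Col4a2 had 79.3%, 79.4%, 77.5% and 76.9%. A single peak of 3.08 to 3.28 kb lay over both 5′ ends in each list, and the 4 lists spanned 2.97 points for Col4a1. In CTX its −log10 q was 65.8, and 96.0% of peaks of that list were weaker. Col4a3 and Col4a4, chains of kidney and other specialised membranes, begin 72 bases apart on chromosome 1, and both had 35.2% in MGE, 43.8% in CGE and 37.8% in LGE, and 44.0% in CTX. The CpG-rich promoter of the first pair, printed above from the side of Col4a1, was thus the more widely covered of the pairs in every list.

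The multiplexins are basement membrane collagens that carry heparan or chondroitin sulphate. Col15a1 had 67.4% in MGE, 69.0% in CGE and 64.7% in LGE, and 68.9% in CTX. Col18a1, the source of endostatin, had 46.1%, 46.5%, 41.3% and 26.8%, with CTX the lowest, and its difference of 19.7 points between lists fell just under the limit of 20. No basement membrane collagen reached that limit.

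Among the other collagens, the FACIT group attaches to the surface of fibrils and comprises 9 of the members. Col12a1 had 77.7% in MGE, 81.3% in CGE and 77.7% in LGE, and 76.7% in CTX, and Col14a1, its close relative, had 70.8%, 77.5%, 66.7% and 68.4%. Of the type IX chains, which coat type II fibrils, Col9a2 had 53.6%, 63.6%, 60.5% and 58.4%. Col9a3 had 35.6% in MGE, 72.2% in CGE and 43.7% in LGE, and 44.2% in CTX, so that CGE stood at least 20 points above each other list. Col9a1 had no peak in its window. Col16a1 had 34.9% in MGE, 72.9% in CGE and 66.9% in LGE, and 65.0% in CTX, and was the only collagen at least 20 points lower in MGE than in every other list, where 0.937% of all genes were. The whole 2 kb upstream of Col16a1 was covered in CGE, LGE and CTX and 25.2% of it in MGE. Col19a1 had 62.1%, 62.9%, 48.3% and 63.0%, below 50% in LGE alone. Col20a1 and Col22a1 were at 0.

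Type VI collagen forms beaded filaments, and its 6 genes had the lowest mean window coverage among the groups of at least 2 collagens, 10.1%. Col6a1, Col6a3 and Col6a4 were at 0 in every list. Col6a2 had 15.9% in MGE, 51.3% in CGE and 10.7% in LGE, and 0 in CTX, with CGE alone covered upstream of the 5′ end, over 46.9% of those 2 kb. Col6a2 and Col9a3 were the only collagens at least 20 points higher in CGE than in every other list, where 1.51% of all genes were. Col6a5 had 0 in MGE, 19.3% in CGE and 0 in LGE, and 31.3% in CTX, from peaks with a −log10 q of 2.91 and 2.98. Col6a6, its neighbour on chromosome 9, had 18.2%, 39.4%, 35.0% and 20.6%.

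The short-chain collagens build hexagonal networks. Col8a1 had 55.3% in MGE, 60.7% in CGE and 60.3% in LGE, and 57.2% in CTX, and Col8a2 had 67.3%, 69.3%, 67.4% and 66.1%. Col10a1, the marker of hypertrophic cartilage, was at 0. Col7a1, the anchoring fibril collagen of skin, had 45.2%, 52.8%, 54.3% and 52.8%.

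The transmembrane collagens span the plasma membrane and ranged from 0 to 86.6% in mean coverage. Col13a1 had 86.5% in MGE, 86.6% in CGE and 86.6% in LGE, and 86.7% in CTX, the highest values outside Col1a1, while Col17a1 and Col25a1 were at 0. Col23a1 had 29.1%, 39.0%, 21.1% and 41.2%, with every peak beginning inside the gene, 0.313 to 0.354 kb from the 5′ end. The last 2 collagens belong to none of these groups. Col26a1 had 59.0% in MGE, 74.1% in CGE and 67.5% in LGE, and 71.7% in CTX, and Col28a1 was at 0.

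**Figure D3:**
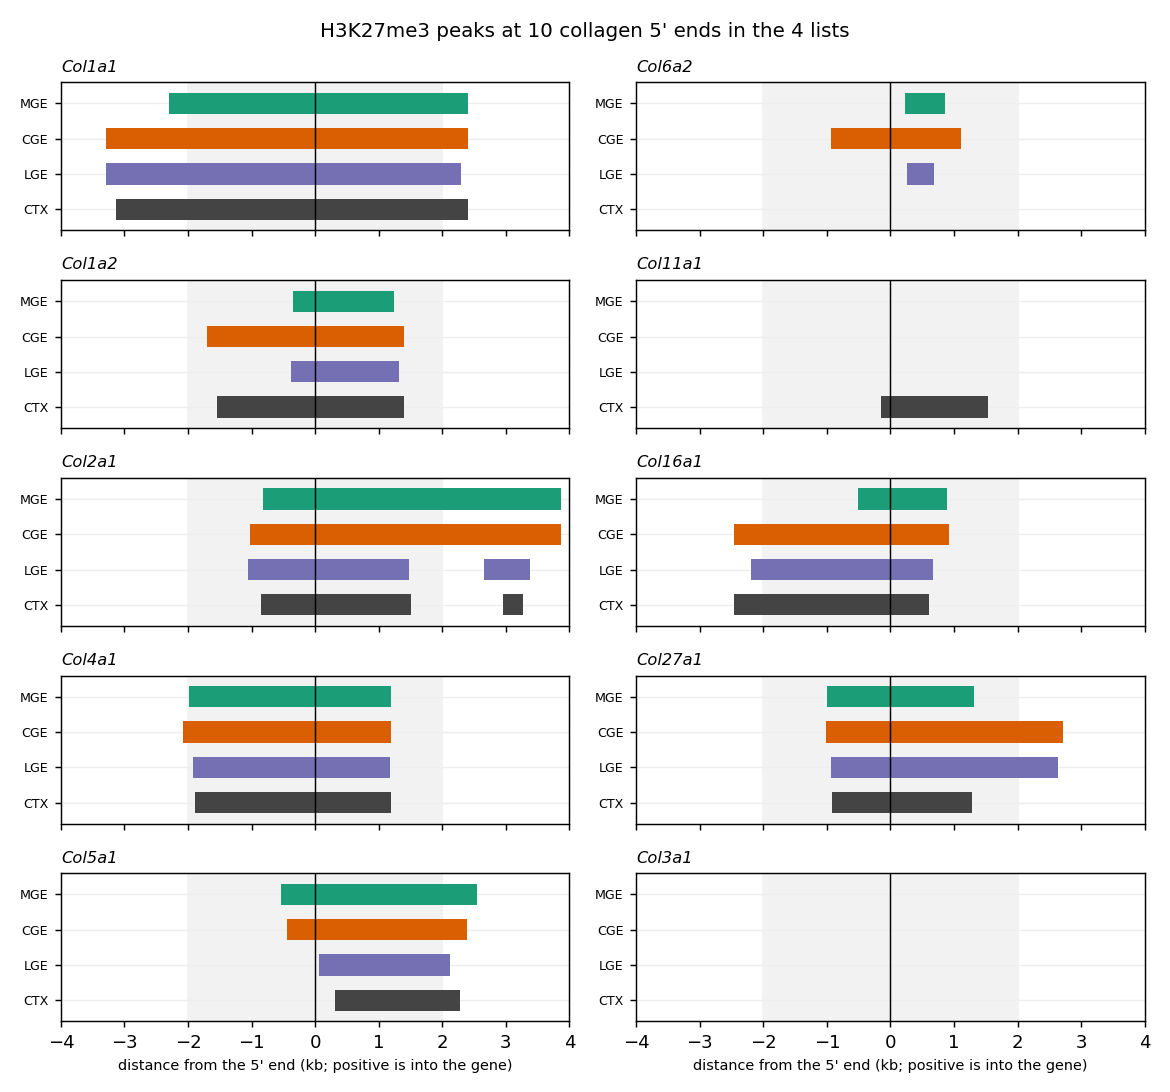
Extent of peaks in each list (coloured bars) within 4 kb of the 5′ end of 10 collagen genes, with the x axis in kb from the 5′ end, positive into the gene, and the 2 kb window shaded. Col4a1 shows near-equal bars in all lists, Col1a2 and Col16a1 differ on the upstream side, Col27a1 differs inside the gene, Col11a1 has a bar in CTX alone and Col3a1 has none.

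The question across the regions was whether collagens are covered alike in the 4 lists. Window coverage differed by 20 points or more between at least 2 lists in 11 of the 42 members, 26.2% against 12.4% of all genes. That background includes the many genes with no peak in any list, which cannot differ. Among genes with a covered base in the window, 11 of 31 collagens and 2589 of 8334 genes differed so, which are similar shares. On the upstream 2 kb alone the same differences were 0 in Col23a1, 4.70 points in Col27a1, 7.35 in Col11a1 and 14.6 in Col9a3, and 7 of the 11 stayed at 20 points or more. The 11 were Col1a2, Col5a1, Col5a3, Col11a1 and Col27a1 of the fibrillar class and Col6a2, Col6a5, Col6a6, Col9a3, Col16a1 and Col23a1 of the other class. The differences ranged from 20.1 points in Col23a1 to 51.3 points in Col6a2. The single highest value was in CGE for 21 members, in CTX for 7, in LGE for 1 and in MGE for 1. The single lowest was in MGE for 13, in CTX for 9, in LGE for 5 and in CGE for none. These counts were not made for all genes, whose mean window coverage was also highest in CGE, at 13.7%, and lowest in MGE, at 11.8%. They have no share of all genes beside them, so no trait of the collagens is read from them. The lists also differed in size. The peaks of CGE covered 32.2 Mb of the autosomes against 23.99 Mb in MGE, 25.9 Mb in LGE and 30.5 Mb in CTX, and by the study's methods the CGE libraries had the most reads in sum and those of MGE the fewest. The part of list size or sequencing depth in the differences was not tested. With each list reduced to its strongest peaks covering equal bases, the count of marked collagens was 15 in MGE, 22 in CGE and 15 in LGE, and 17 in CTX. That cut removes only the weakest peaks and leaves the width of the others as called, so it is no test of size or depth. The lead of CGE depended on the limit for marking. With 20% of the window as the limit, 25 collagens passed in MGE, 28 in CGE and 27 in LGE, and 29 in CTX. As a share of a list's covered bases, collagen windows made up 0.230% in MGE, 0.213% in CGE and 0.222% in LGE, and 0.199% in CTX. Averaged over the members, CTX stood 0.27 points above the mean of the ganglionic eminences, a difference that turned to −0.131 points when the most covered coding transcript start of each gene was used.

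The lists shared more of their covered bases in collagen windows than across the autosomes. Of 72.1 kb under a peak in any list, 69.8% was under a peak in all 4, against 33.2% over the autosomes. The pairwise Jaccard index, the shared bases as a percentage of the bases in either list, ran from 78.7% for MGE and CGE to 85.6% for MGE and LGE in collagen windows, and from 46.6% to 60.3% over the autosomes. Windows at 5′ ends hold wider and stronger peaks than the rest of the genome, and the index was not computed for other sets of promoters.

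The peaks at collagen 5′ ends were wide and strong for their lists. Their number was 26 in MGE, 28 in CGE and 26 in LGE, and 27 in CTX. Their median width was 2.18, 2.80, 2.29 and 2.29 kb, against 1.70, 1.99, 1.70 and 1.70 kb for the peaks touching the window of any protein-coding gene. The median −log10 q was 16.7, 47.7, 29.6 and 12.7 against 6.37, 13.8, 8.76 and 6.78, while the median fold enrichment was nearer to the other promoter peaks, 3.57, 3.32, 3.70 and 3.22 against 3.22, 3.06, 3.28 and 3.03. The highest −log10 q of a window peak was at Col14a1 in the eminence lists and at Col8a2 in CTX, where it was 107. At Col14a1 it was 67.8 in MGE, 139 in CGE and 99.5 in LGE, and 98.4 in CTX, whereas at Col1a1 a wide and shallow peak had 10.0, 20.9, 14.4 and 12.7 with a fold enrichment of 2.08 to 2.41.

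Peaks were centred slightly inside the genes, which was not particular to collagens. Of all protein-coding genes 16.5% were under a peak 1 kb downstream of the 5′ end and 7.66% 1 kb upstream, averaged over the lists. The base at the 5′ end lay under a peak in 25 members in MGE, 28 in CGE and 24 in LGE, and 27 in CTX. Downstream of it 37.5, 44.4, 38.02 and 39.8 kb were covered within 2 kb, and upstream 22.2, 29.3, 24.03 and 25.8 kb. At the 5′ end itself, averaged over the lists, 65.9% of fibrillar, 100% of basement membrane and 51.0% of other collagens were under a peak, against 21.4% of all genes. At 5 kb to either side no collagen was, in any list, against 1.94% of all genes upstream and 2.15% downstream.

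**Figure D4:**
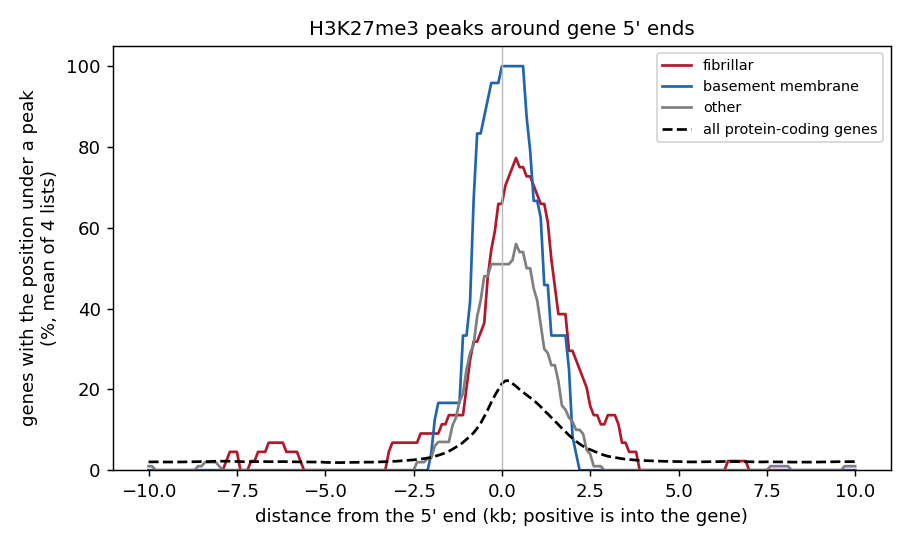
Share of genes whose position lies under a peak (y axis, percent, mean of the 4 lists) by distance from the 5′ end in kb (x axis, positive into the gene), for the 3 collagen classes and all protein-coding genes (dashed). The collagen curves rise to 50% or more around the 5′ end and are at 0 at 5 kb on either side, where the curve of all genes stays near 2%.

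Gene bodies were sparsely covered. The mean over the lists was 3.91% of the gene body in fibrillar, 1.76% in basement membrane and 3.12% in other collagens, against 4.71% for all protein-coding genes. By the median the direction was the other way, with 1.44% for all collagens against 0 for all genes. Collagen genes are long, with a median of 111 kb against 17.6 kb for all genes, and a peak of the same width covers less of a long gene. The part of gene length in the body values was not tested. The first 2 kb of the genes held 61.0% of the covered body bases in MGE, 49.6% in CGE and 61.6% in LGE, and 51.9% in CTX. The bodies of 9 members were free of peaks, 21.4% against 55.5% of all genes. The highest body coverage was in short genes, with 21.8% in Col8a2, 19.6% in Col9a2 and 14.2% in Col1a1.

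Away from the windows, body peaks joined into 45 regions in 18 of the genes, of which 21 were found in 1 list alone and 8 in all 4. The strongest lay in Col8a2 at chr4:126299591-126302580, 12.8 to 15.8 kb from the 5′ end, over a second annotated coding start of the gene. Its −log10 q of 79.1 in MGE, 163 in CGE and 144 in LGE, and 142 in CTX was above that of the peak at the first start of the gene in each list, 48.1, 121, 89.9 and 107. An intronic region of Col13a1 at chr10:61935721-61937882, 41.2 kb into the gene and free of exons and annotated starts, had 8.49, 49.0, 24.9 and 32.6. Of the other regions found in all lists, 1 lay in Col4a2, 1 in Col9a2, 3 in Col16a1 and 1 in Col25a1.

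A pair of genes counted as free of peaks carried them at another start. The only coding transcript of Col25a1, a transmembrane collagen of neurons, begins 49.4 kb inside the annotated gene, and a peak at chr3:130180524-130182080 with a −log10 q of 18.3 in MGE, 40.8 in CGE and 26.3 in LGE, and 27.2 in CTX lay over that start. A window set there was covered over 35.1%, 38.7%, 30.0% and 36.8%. For Col9a1 the window of a second coding start 17.6 kb into the gene had 0 in MGE, 43.5% in CGE and 25.2% in LGE, and 10.3% in CTX. With all coding starts considered, 9 collagens were without a covered base.

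The sequence around the 5′ ends was compared with the coverage as a description. The CpG observed/expected ratio, the number of CpG set against that expected from the C and G content of the 1001 bases around the 5′ end, was 0.6 or more in 12 members, 28.6%, against 47.2% of all genes. Of those 12, 9 were marked in all lists, where 10.7% of all such genes were, and none was without a covered base, where 45.7% of all such genes were. The exceptions among the 12 were Col5a1, Col19a1 and Col23a1. Of the 30 members under 0.6, 4 were marked in all lists, Col1a1, Col8a1, Col9a2 and Col14a1, where 5.16% of all such genes were. All 11 members with no covered base were among the 30, 36.7% of them against 72.7% of genes under 0.6. The median ratio was 0.672 in the collagens marked in all lists and 0.220 in those with no covered base. Over the 42 members the ratio and the mean window coverage had a Pearson r of 0.68 and a Spearman rho of 0.72, with r = 0.70 for GC content. These points share the same lists, and the head-to-head pairs share their windows. Over all 20807 genes r was 0.24 and rho 0.31, and with the genes ordered by the ratio and cut into 10 equal groups, mean coverage was highest in the fifth group at 23.5% and was 12.5% in the group richest in CpG. Col1a1 stood apart from the trend of the members, with full coverage at a ratio of 0.300, and Col1a2 had a mean of 58.3% at 0.211.

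**Figure D5:**
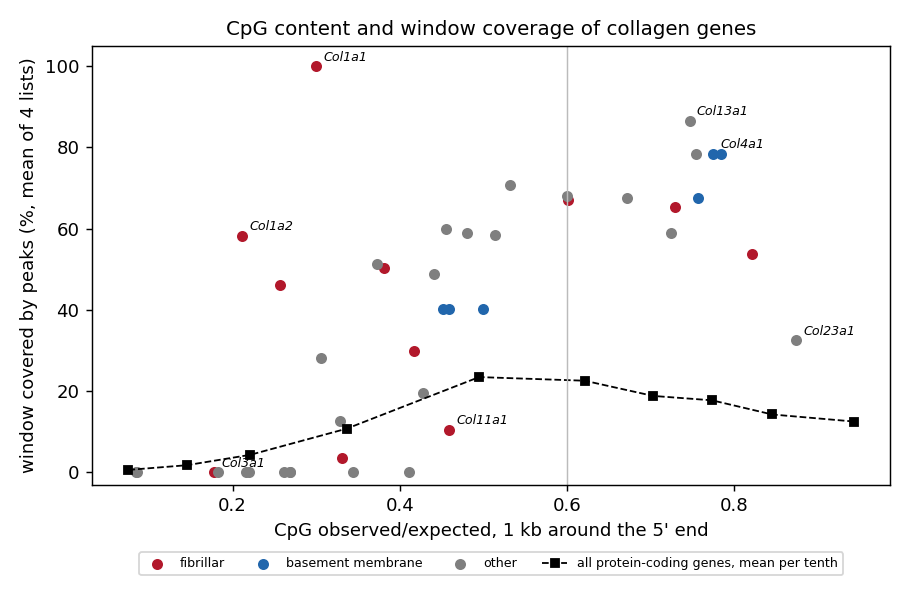
Window coverage in percent, as the mean of the 4 lists (y axis), by CpG observed/expected ratio of the 1001 bases around the 5′ end (x axis) for each collagen, coloured by class, with the mean of all protein-coding genes in each of 10 equal groups ordered by the ratio (squares). Collagens at a ratio of 0.6 or more (right of the grey line) all have coverage, those at 0 all lie under 0.6, and Col1a1 has full coverage at 0.300.

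Motif matches in the 250 bases upstream of the GENCODE 5′ end, on either strand, were counted for the GC box GGGCGG, the CCAAT box CCAAT and the TATA box TATAAA. A match was found in 20 members for GGGCGG (47.6% against 39.6% of all genes), in 15 for CCAAT (35.7% against 35.5%) and in 5 for TATAAA (11.9% against 11.6%). Of the 13 members marked in all lists 7 held GGGCGG, 6 CCAAT and 2 TATAAA, and of the 11 with no covered base 2, 1 and 3. The 3 were Col3a1, Col10a1 and Col17a1. A match of letters is no binding site.

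Other genes of collagen biology were read from lists set beside the members, and those given at 0 below were picked after their values were seen. Of 26 genes for collagen modification and processing, 8 were marked in MGE (30.8%), 12 in CGE (46.2%) and 8 in LGE (30.8%), and 6 in CTX (23.1%). Among all genes 10.0%, 12.6%, 10.5% and 11.2% were marked in the same order. In all lists 5 of the 26 were marked, where 7.77% of all genes were. The highest were Adamts2, a procollagen N-propeptidase, with 73.1% in MGE, 79.4% in CGE and 78.6% in LGE, and 78.6% in CTX, Tll1, a relative of the C-propeptidase Bmp1, with 77.5%, 80.8%, 74.1% and 74.2%, and Pcolce2, an enhancer of that step, with 56.5%, 77.6%, 53.1% and 75.1%. P4hb, a subunit of prolyl 4-hydroxylase used by many secreted proteins, had no peak in its window in any list. Of 17 partners of type IV collagen in basement membranes, 7, 9, 6 and 4 were marked (41.2%, 52.9%, 35.3% and 23.5%). They were led by the laminin chains Lamb1 with 75.0%, 75.0%, 72.2% and 77.7% and Lamc3 with 61.1%, 79.2%, 77.5% and 71.7%. Lama2, Lamb2, Lamb3 and Sparc had no covered base in the window, 23.5% against 59.9% of all genes.

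Of 11 collagen receptors, 2 (18.2%) were marked in MGE and 1 (9.09%) in each other list, against 10.0 to 12.6% of all genes, and 6 (54.5%) had no covered base, against 59.9% of all genes. The integrin chain Itga11 led with 61.7%, 65.6%, 61.1% and 65.9%, whereas the shared chain Itgb1 and the discoidin domain receptors Ddr1 and Ddr2 were at 0. Of 20 proteoglycans and glycoproteins of fibrils, 4, 6, 4 and 4 were marked (20%, 30%, 20% and 20%), and 9 (45%) had no covered base. The cartilage proteoglycan Acan was at 78.6%, 83.8%, 72.0% and 81.4% and the cartilage protein Comp at 69.6%, 76.1%, 67.8% and 74.5%. The small leucine-rich proteoglycan Lum was at 0. Of 8 collagenases, gelatinases and their inhibitors, 2, 3, 3 and 3 were marked (25%, 37.5%, 37.5% and 37.5%), with Mmp14, a membrane-bound collagenase, at 61.6%, 63.6%, 57.8% and 57.4%. The median of the mean window coverage was 39.7% for modification and processing, 38.6% for basement membrane partners, 32.9% for collagenases, 4.32% for fibril partners and 0 for receptors, beside 43.2% for the collagens and 0 for all genes.

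Markers of cell types that make collagen, and of neural cells, were covered in part. Of 6 endothelial genes 2 (33.3%) were marked in each list, Kdr with a mean of 94.0% and Cldn5 with 71.1%. The other 4 (Pecam1, Cdh5, Tek and Tie1) had no covered base, 66.7% against 59.9% of all genes. Of 6 mural genes 1, 4, 3 and 2 were marked in MGE, CGE, LGE and CTX (16.7%, 66.7%, 50% and 33.3%). Of 6 meningeal fibroblast genes 4 (66.7%) were marked in each list. Of 5 neural genes 2, 2, 2 and 3 were marked (40%, 40%, 40% and 60%), Sox2 and Nes in every list and Tubb3 in CTX. Among all genes 10.0%, 12.6%, 10.5% and 11.2% were marked. The tissue labels could be checked only in part from such lists. Nkx2-1, the defining factor of MGE, was fully covered in all 4 lists, the MGE list included, and Emx1, a cortical factor, had a gene body covered over 42.2% in MGE, 42.2% in CGE and 41.7% in LGE, and 20.6% in CTX. The share of vessel and meningeal cells in the samples, and its part in the collagen values, was not tested.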

How the data were processed

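H3K27me3 CUT&Tag peak lists of MGE, CGE, LGE and CTX were analysed as deposited. The authors aligned reads to GRCm38 with Bowtie2, removed blacklisted regions and duplicates, merged the samples of a region and called broad peaks with MACS, whose version and control are not given in the sources used here. The deposited fold enrichment is a ratio to local background, and the deposited −log10 q is the caller's. Neither was recomputed, and the lists hold no read counts, so no counting precision is given for a peak. The study's methods state read totals per library, which were used here only to name the regions with the most and the fewest reads. Members, classes and gene lists were chosen with earlier results of these data known. Every collagen could be named, with all 4 values for members marked in all lists, those that differ by 20 points and types I to IV, and up to 4 leading genes of each other list. Coverage of windows and of gene bodies (GENCODE M21) was computed with Python 3.11.15, numpy 2.4.6 and pysam 0.24.0, and tested on simulated data. CpG content came from the RefSeq genome of the same assembly. As alternatives, a q-value limit of 0.001, joining of peaks under 3 kb apart, lists of equal number or bases, the upstream side, other transcript starts, other limits for marking, 1 gene per head-to-head pair, type IV alone and bodies without their first 2 kb were used. Peak calls had no replicates and no test was made.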

Additional observations from a re-analysis of the deposited data

How the results depend on the processing

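No paired analysis was possible because the samples of each region were merged before peaks were called, and for the same reason no replicate could be left out. Lists cut to the same number of strongest peaks, 1 gene per head-to-head pair and type IV alone as basement membrane left the summary values computed under them (13, 7 and 2) within 1.5 times. Under the first, collagens with no covered base went from 11 to 12, and with 1 gene per pair marked collagens went from 15 to 14 in MGE, from 22 to 21 in CGE and from 17 to 16 in CTX. With the 2 kb upstream alone, marked collagens numbered 7 in MGE, 14 in CGE and 11 in CTX, 6 were marked in all lists, fibrillar coverage was 27.5% and CTX minus the eminences was 0.752 points. With any 1 covered base as the limit the counts for MGE, CGE, LGE, CTX and all lists were 28, 30, 28, 29 and 27, and with 20% they were 25, 28, 27, 29 and 25. Without the first 2 kb, body coverage was 1.00% in fibrillar, 0.686% in basement membrane and 1.84% in other collagens. CTX minus the eminences, 0.27 points as deposited, was 0.154 with a q-value under 0.001, 0.532 with equal bases, −0.00774 after joining peaks under 3 kb apart and −0.131 with the most covered transcript start, and has no stable sign. Of the 11 differences of single genes, 10 stayed at 20 points or more under each of the 4 settings of the lists. The exception was Col6a5, at 0 with a q-value under 0.001. These settings drop weak peaks or join near ones and do not call the ends of a kept peak anew. They are thus no test of depth or merging. On the upstream side alone 6 of the 11 moved by over 1.5 times, Col23a1 to 0, Col27a1 to 4.70, Col11a1 to 7.35, Col9a3 to 14.6, Col1a2 to 67.9 and Col16a1 to 74.8 points. With the most covered transcript start Col27a1 was at 35.8 points. The merged lists weigh samples by their reads, and depth limits which weak peaks appear.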
